A study of Vitis vinifera with 16 samples.

Results

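The stilbene synthase arrays of grapevine were followed in leaves of Vitis vinifera cv. Garnacha Blanca. The members were every gene of the table with a row id from VIT_16s0100g00750 to VIT_16s0100g01200 on chromosome 16, and from VIT_10s0042g00840 to VIT_10s0042g00950 on chromosome 10, both ends included. This gave 51 members of the 30661 genes in the table, 39 on chromosome 16 and 12 on chromosome 10. The choice used the row ids alone and no measured value. Neither the deposited table nor the reference used here pairs these ids with a gene name, so the name of the arrays could not be checked gene by gene, and the members are called by their row ids.

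Stilbene synthases are plant type III polyketide synthases. They join a coumaroyl-CoA starter with malonyl-CoA units to make resveratrol, from the same substrates that chalcone synthase uses to open the flavonoid pathway. Grapevine carries them as a large family of tandem copies, and resveratrol and the stilbenes made from it, such as viniferins, are its best known phytoalexins, the antimicrobial compounds that leaves make after infection, ultraviolet light or elicitors.

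The plants were one-year-old vines grafted on the rootstock 110R and grown in a greenhouse. Leaves were sprayed with Akivi (Aki), a Dittrichia viscosa plant extract, at 0.521 g per L, with the Bacillus velezensis strain Bacillus UdG as a lyophilized (BL) or a fresh (BF) preparation, or with water as the non-treated control (NTC). Both Bacillus preparations were sprayed at the same stated cell density. BL cells were grown in a modified medium and lyophilized with skimmed milk, and BF cells were kept in culture supernatant. The NTC spray held none of these, so effects of strain, medium and carrier cannot be told apart. Leaves were taken 24 h later. Each of the 4 groups had 4 libraries (R1 to R4), and 1 library held 2 leaves from each of 5 plants, so that a value is a mean over pooled leaves.

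The study left 1 library of each group out of its comparisons, Aki_R1, BL_R1, BF_R1 and NTC_R3, for their place in a principal component analysis of these expression values. Main values here are over the 12 retained libraries, and values over all 16 stand beside them, because the left-out control NTC_R3 had far more signal from both arrays than the other controls. NTC_R3 was the highest NTC library for 30 of the 36 members with a fragment in NTC, and Aki_R3, which was retained, the highest Aki library for 25 of 38, both without VIT_10s0042g00950. The 16 libraries held 11078475 to 16991911 fragments assigned to genes, a number rebuilt from the FPKM (fragments per kilobase of gene and 1000000 assigned fragments). The 3 retained BL libraries (12282557, 12522566 and 12471883) were each shallower than every NTC library (13078383 to 16124864). Since leaves were measured whole, fewer cells that express a gene and less RNA per cell cannot be told apart.

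The arrays were almost silent in these leaves with 1 exception. Of the 51 members, 7 had no fragment in any library (5 on chromosome 16 and 2 on chromosome 10), and 44 had at least 1. A count of 0 over all 16 libraries allows up to 0.0135 CPM (fragments per 1000000 assigned fragments), by the limit of 3 fragments, for counting error only. The highest level in any library stayed under 1 FPKM for 47 of the 51 members. The exception was VIT_10s0042g00950, the last id of the chromosome 10 array, with a mean of 15.6 FPKM over the 16 libraries. The next highest member, VIT_16s0100g00860, had a mean of 0.596 FPKM.

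The gene lengths implied by the FPKM had a median of 1360 bases over the 44 members with a fragment, and 37 of them were between 1000 and 1600 bases. VIT_10s0042g00860 was the shortest at 188 bases, so 1 to 2 fragments gave it up to 0.945 FPKM and a place among the 12 members with the highest mean. VIT_16s0100g01110 was the longest at 15767 bases, more than any other member, and its 47 fragments gave at most 0.0506 FPKM. Only fragments that map to 1 place were counted, and array copies can be nearly identical, so a fragment shared by copies is lost and a level of a single member is a lower estimate that depends on how unique its sequence is. The reads of Garnacha Blanca were mapped to the genome of a Pinot noir line, and the part of differences between cultivars in these levels was not tested.

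**Figure D1:**
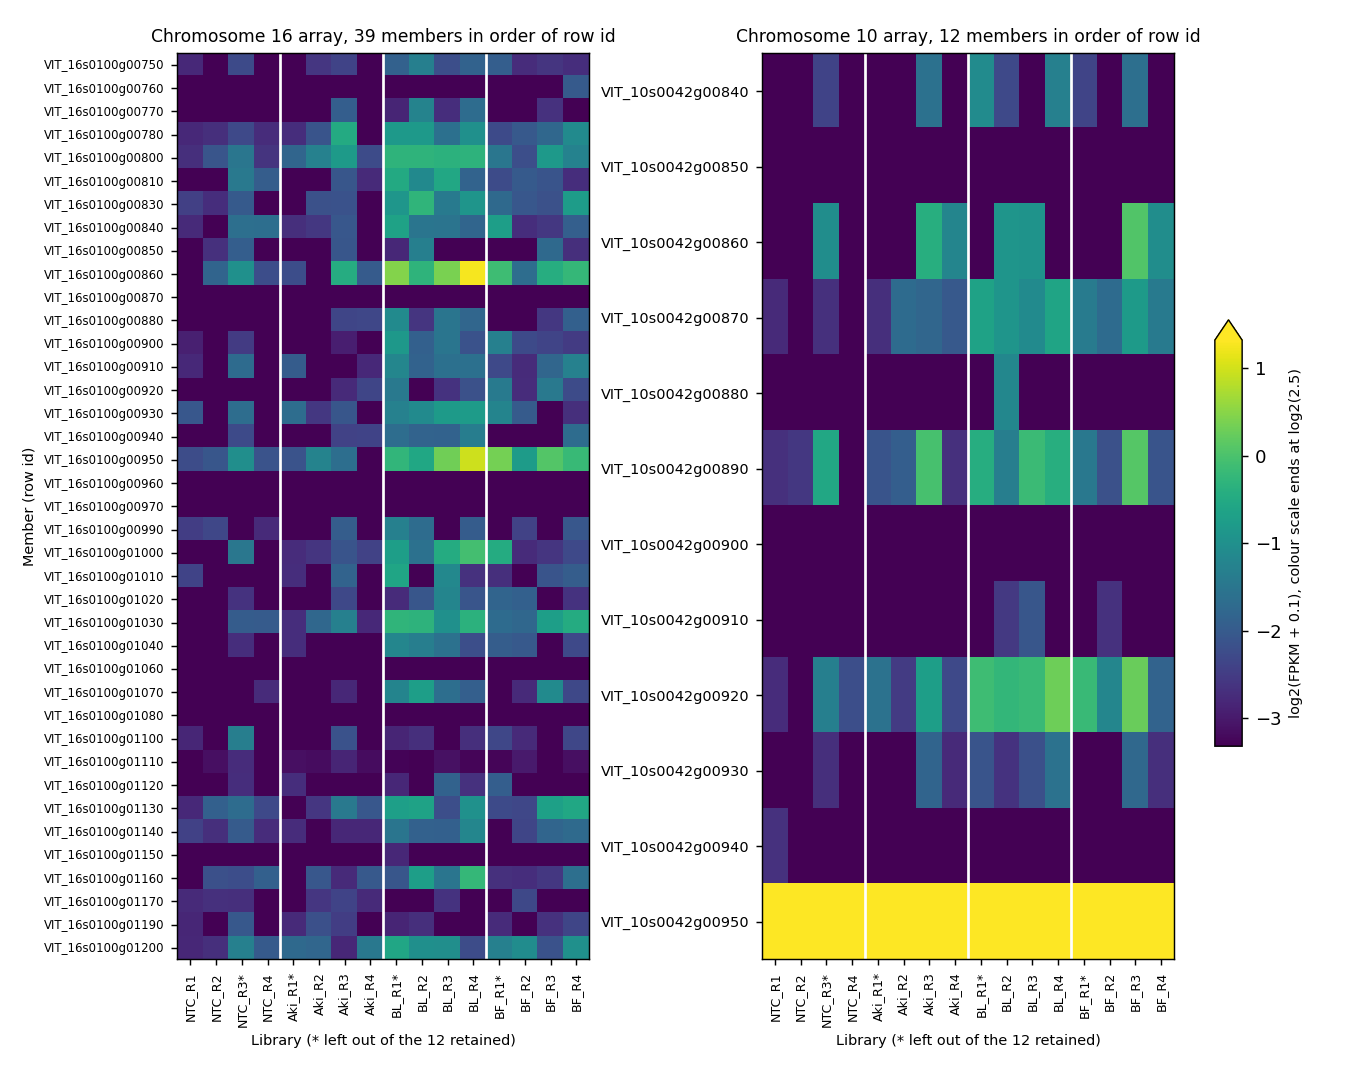
Level of every member in every library, as log2(FPKM + 0.1), with the members in order of row id (rows) and the libraries by group (columns, an asterisk marks the 4 libraries left out). The colour scale ends at log2(2.5), which only VIT_10s0042g00950 passes, and the BL columns hold the most members with signal.

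The summed signal of the chromosome 16 array separated BL from NTC in every library. The 39 members together had 1.43, 1.68 and 1.86 CPM in NTC_R1, NTC_R2 and NTC_R4, and 6.68 in the left-out NTC_R3. In BL the sum was 12.5, 11.9 and 14.4 in R2, R3 and R4, and 15.2 in the left-out R1. All 4 BL libraries were above all 4 NTC libraries. In the retained libraries the means were 1.65 ± 0.216 in NTC and 13.0 ± 1.32 in BL (SD, n = 3 each), a ratio of 7.83, which became 4.64 over all 16 libraries. This sum is a description of the members and received no test.

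BF lay between the retained NTC libraries and BL, and Aki was above the retained NTC libraries by a smaller step in all but 1 library. The chromosome 16 sum in BF was 4.41, 6.75 and 9.04 CPM in R2, R3 and R4, and 7.83 in the left-out R1. The retained mean was 6.73 ± 2.32 (SD, n = 3), 4.07 times that of NTC, and 2.41 times over all 16. In Aki the sum was 2.53, 6.86 and 2.07 in R2, R3 and R4, and 2.08 in the left-out R1. The Aki mean of 3.82 ± 2.64 (SD, n = 3) thus rests on Aki_R3. All 4 Aki libraries were above the 3 retained NTC libraries, and 3 of them were below NTC_R3. The ratio to NTC was 2.31 in the retained libraries and 1.16 over all 16. No BF library reached the lowest BL library, while NTC_R3 and Aki_R3 lay within the range of BF.

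The counting intervals of NTC_R1 and NTC_R3, the lowest and the highest NTC library, lay below that of the lowest BL library. Those of the lowest BL and the highest BF library overlapped. The exact (Clopper-Pearson) 95% interval of NTC_R1 was 0.904 to 2.14 CPM from 23 fragments, that of BL_R3, the lowest BL library, was 10.1 to 14.0 from 149 fragments, and that of BF_R4, the highest BF library, was 7.52 to 10.8 from 125 fragments, which overlaps with BL_R3. The left-out NTC_R3 had 5.38 to 8.19 from 92 fragments, below BL_R3. Reads without molecular identifiers are not independent molecules, so these intervals cover counting error only.

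The chromosome 10 array gave the same order once VIT_10s0042g00950 was left out of the sum, a choice made after its level was seen. The other 11 members together had 0.248, 0.0765 and 0.143 CPM in NTC_R1, NTC_R2 and NTC_R4, and 1.31 in NTC_R3. They had 2.20, 2.72 and 3.37 in BL_R2, BL_R3 and BL_R4, and 2.88 in BL_R1. The retained means were 0.156 ± 0.0865 in NTC and 2.76 ± 0.586 in BL (SD, n = 3 each). The NTC libraries rest on 1 to 4 fragments here, so the ratio of 17.7 is not well set, and over all 16 libraries it was 6.30. BF_R3 had 3.64 CPM, more than any BL library, while BF_R1, BF_R2 and BF_R4 had 1.68, 0.881 and 0.868. Aki_R3 had 2.39, and the other Aki libraries had 0.502, 0.542 and 0.502, all above the retained NTC libraries and below NTC_R3. BL and NTC did not overlap, and BF spanned a wider range than BL.

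**Figure D2:**
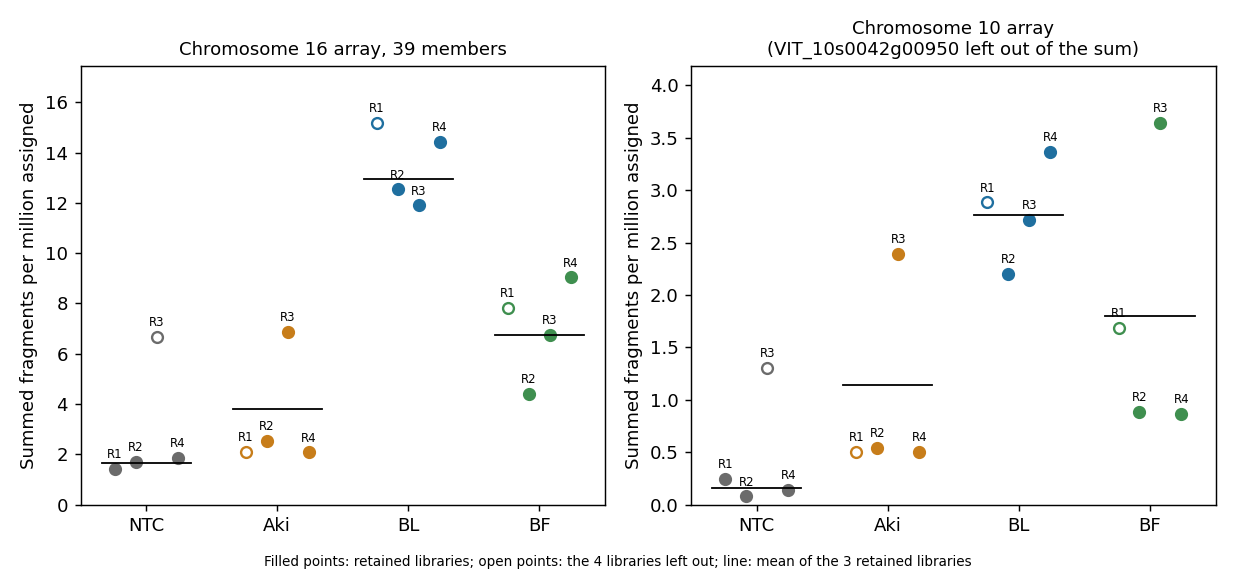
Summed CPM (fragments per 1000000 assigned fragments) in each library for the chromosome 16 array (left) and the chromosome 10 array without VIT_10s0042g00950 (right), by group. All 4 BL libraries lie above all 4 NTC libraries in both panels, while NTC_R3 and Aki_R3 lie far above the other libraries of their groups.

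More members were detected in BL and BF than in NTC. Leaving out VIT_10s0042g00950, at least 1 fragment was found for 28 of 50 members in the retained NTC libraries, 36 in Aki, 40 in BL and 39 in BF. With the 4 left-out libraries added, these numbers were 36, 38, 41 and 40, closer together than before. Of the members with a fragment in the groups compared, 39 of 41 had a higher mean in BL than in NTC, 38 of 40 in BF and 31 of 37 in Aki. For the direction of the mean, all 16 libraries gave 37 of 42, 37 of 41 and 23 of 39. The count for Aki therefore shrank with the 4 further libraries, and those for BL and BF changed little. In the retained libraries, 13 of the members counted for BL, 12 for BF and 9 for Aki had no fragment in NTC. For those, any fragment in the treated group gives a higher mean. The counts of members detected and of directions stand without a share over all genes and are a description. Members of a tandem array are not independent of each other.

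The signal was spread over the chromosome 16 array and not held by 1 copy. Of its 1479 fragments over the 16 libraries, VIT_16s0100g00860 held 11.0%, VIT_16s0100g01030 6.36%, VIT_16s0100g00800 5.88%, VIT_16s0100g01200 5.34% and VIT_16s0100g01130 4.94%. VIT_16s0100g00860 had the most fragments of the array in BL (93 of 741) and in BF (40 of 373). In NTC the first place went to VIT_16s0100g01110, the member with the very long gene model, with 14 of 163. Of those 14 fragments, 11 came from the left-out NTC_R3. On chromosome 10, VIT_10s0042g00920 held 36.5%, VIT_10s0042g00890 27.0% and VIT_10s0042g00870 20.9% of the 326 fragments of the array without VIT_10s0042g00950. These 3 members thus held 84.4% of it.

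The chromosome 16 array was also cut into 3 runs of 13 members in order of row id, as a description. The first run, up to VIT_16s0100g00900, held 36.6% of the array's fragments in the retained NTC libraries and 45.1% in BL. The last run, from VIT_16s0100g01060 on, held 39.4% in NTC, 31.8% in Aki, 30.1% in BF and 20.3% in BL. In CPM, the first run was 0.610 ± 0.176 in NTC and 5.85 ± 0.617 in BL, and the last run was 0.663 ± 0.208 in NTC and 2.63 ± 0.469 in BL (SD, n = 3). Every BL library was above every NTC library in the first run also with all 16 libraries (5.19 to 6.94 against 0.434 to 2.32). In the last run the lowest BL library (2.16) was below NTC_R3 (2.68). The NTC shares rest on 26, 17 and 28 fragments in the first, middle and last run, and the difference between the runs was not tested.

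Genes were compared between groups with limma on log2(FPKM + 0.1), in 1 model over the 12 retained libraries, restricted to genes that reached 0.5 FPKM in 3 or more of them. With p-values adjusted by Benjamini and Hochberg over the 20078 genes tested, a gene was called at 0.05 or below. Only 8 of the 51 members passed this filter, 5 on chromosome 16 and 3 on chromosome 10. No retained NTC library reached 0.5 FPKM for any of them but VIT_10s0042g00950. The other 7 passed only through treated libraries, which favours members that differ from NTC, and their counts of calls are a description and no support for a response of the arrays.

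BL against NTC asked how the lyophilized Bacillus preparation, with its carrier, changed the leaf. In this comparison 5 of the 8 members tested were called higher and none lower, beside 11.5% of all genes tested called higher and 8.16% lower. The count depended on single libraries, and was 3 without NTC_R1, 3 without BL_R2 and 1 without BL_R4. Over all 16 libraries 6 of 9 members were called higher and 0 lower, beside 9.33% and 6.65% of all genes, and leaving out 1 library at a time gave 5 to 7.

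VIT_16s0100g00860 had the highest mean level in BL of the 5. It was at 0, 0.183 and 0.114 FPKM in NTC_R1, NTC_R2 and NTC_R4, and 0.406 in NTC_R3. In BL it was at 0.716, 1.21 and 2.31 FPKM in R2, R3 and R4, and 1.27 in R1. The groups did not overlap, even with NTC_R3. The log2 fold change was 2.91 (SE 0.743, limma adjusted p = 0.0160). The retained NTC libraries had 0, 3 and 2 fragments of it, and BL had 11, 19 and 36. Its adjusted p was 0.0555 without NTC_R1, 0.0703 without BL_R4 and 0.0557 with a pseudocount of 0.01.

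VIT_16s0100g00800 was the most even of the members in BL. Its level there was 0.708, 0.694 and 0.697 FPKM in R2, R3 and R4, and 0.716 in R1. These rest on 10, 10 and 10 fragments in R2, R3 and R4, and 14 in R1. With so few fragments, such close values can be a coincidence of counting. In NTC it was 0.0539, 0.133 and 0.0621 FPKM in R1, R2 and R4, and 0.252 in R3. All BL libraries were above all others of the series for this member, the highest of which was Aki_R3 at 0.479. Its log2 fold change was 2.15 (SE 0.534, limma adjusted p = 0.0138). BL was the one group with 3 libraries at the filter, so this member was not tested once any retained BL library was left out.

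VIT_16s0100g00950 was the member called in both Bacillus groups. It was at 0.111, 0.137 and 0.127 FPKM in NTC_R1, NTC_R2 and NTC_R4, 1 fragment each, and 0.389 in NTC_R3. In BL it was at 0.582, 1.14 and 1.86 FPKM in R2, R3 and R4, and 0.736 in R1. In BF it was at 0.484, 0.952 and 0.775 in R2, R3 and R4, and 1.18 in R1. Neither group overlapped with NTC. The log2 fold change was 2.40 in BL (SE 0.583, limma adjusted p = 0.0126) and 1.86 in BF (SE 0.583, limma adjusted p = 0.0489). The BL call was lost without BL_R4 (adjusted p = 0.059) and with a pseudocount of 0.01 (adjusted p = 0.0777).

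VIT_16s0100g01030 was without a fragment in NTC_R1 and NTC_R2, at 0.154 FPKM in NTC_R4 and at 0.156 in NTC_R3. BL had 0.700, 0.401 and 0.690 FPKM in R2, R3 and R4, and 0.717 in R1, all above NTC. BL exceeded NTC by 2.32 on the log2 scale (SE 0.612, limma adjusted p = 0.0190). The adjusted p was 0.0558 without NTC_R1, 0.0593 without NTC_R2, 0.0642 without BL_R2 and 0.0628 without BL_R4, so this call needed each of those libraries.

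VIT_10s0042g00920 was the member of the chromosome 10 array that was called in BL. It was at 0.0512, 0 and 0.118 FPKM in NTC_R1, NTC_R2 and NTC_R4, and 0.299 in NTC_R3. BL had 0.739, 0.791 and 1.12 FPKM in R2, R3 and R4, and 0.825 in R1, with no overlap. The difference was 2.71 on the log2 scale (SE 0.654, limma adjusted p = 0.0122), and the member stayed called without any 1 of the 12 libraries.

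Of the remaining members tested, VIT_10s0042g00890 had a log2 fold change of 2.22 in BL (SE 0.788, limma adjusted p = 0.0676). It was at 0.294, 0.794 and 0.652 FPKM in BL_R2, BL_R3 and BL_R4, against 0 to 0.0691 in the retained NTC libraries and 0.591 in NTC_R3. With NTC_R3 the groups overlapped. VIT_16s0100g01130 was at 0.537, 0.117 and 0.411 FPKM in BL_R2, BL_R3 and BL_R4, and its log2 fold change of 1.05 was not called (SE 0.656, limma adjusted p = 0.296). VIT_16s0100g01000 passed the filter only with all 16 libraries. It had no fragment in the retained NTC libraries and 0.259 FPKM in NTC_R3, against 0.504, 0.233, 0.627 and 0.859 in BL_R1 to BL_R4. Its log2 fold change over all 16 was 2.15 (SE 0.596, limma adjusted p = 0.0204).

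**Figure D3:**
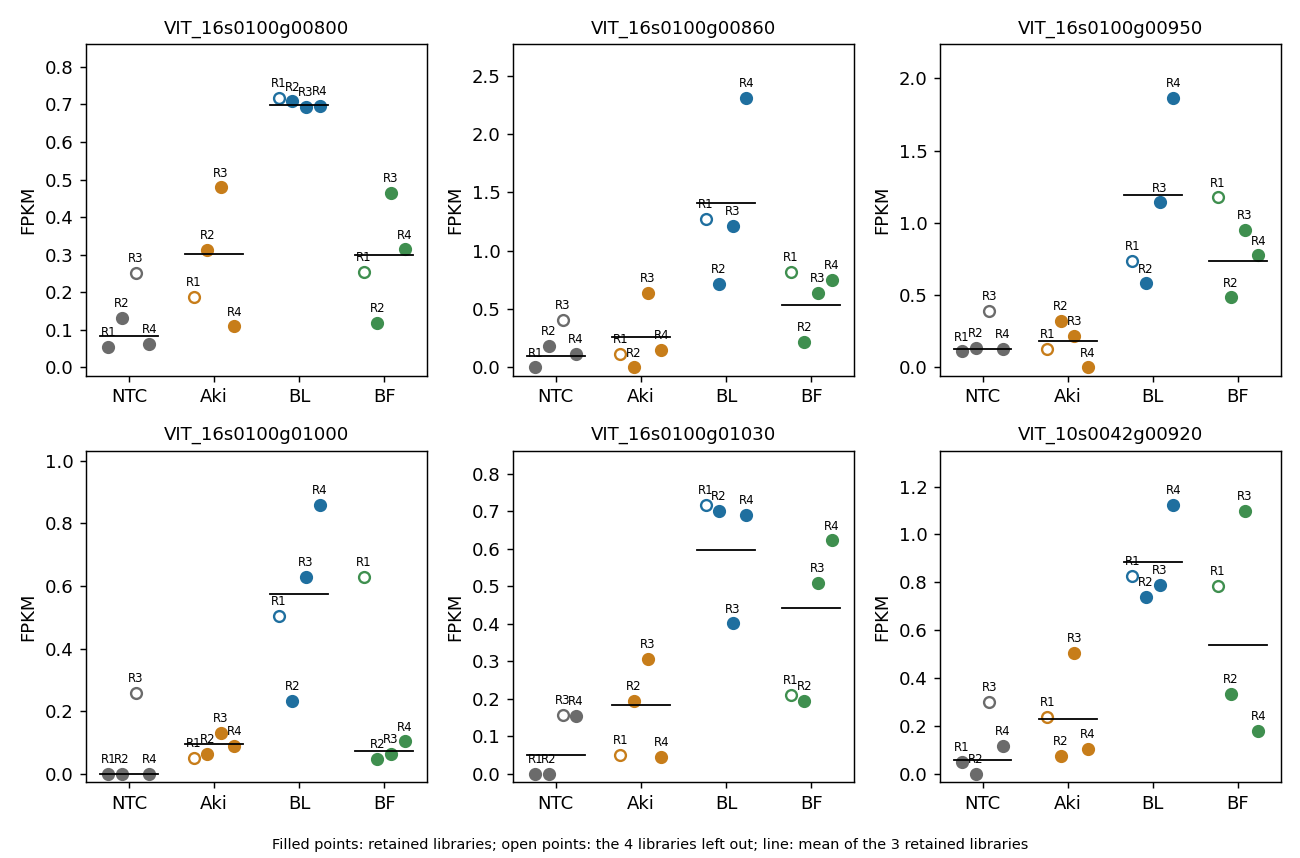
FPKM per library and group of the 6 members called higher in BL against NTC in the 12 retained libraries or in all 16. The BL points lie above the retained NTC points in each panel, VIT_16s0100g00800 has its 4 BL libraries between 0.694 and 0.716 FPKM, and VIT_16s0100g01000 overlaps with NTC_R3.

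Members under the filter were read in 2 ways without the limit of 0.5 FPKM, both chosen after the data were seen. First, the groups of 3 retained libraries were compared for overlap. BL was above NTC with no overlap for 24 of the 43 members with a fragment in these libraries, beside 17.8% of 25013 genes, and below NTC for 0, beside 13.0%. Over all 16 libraries BL was above for 18 of 44, beside 10.2%. Second, the same limma model without the filter called 18 of 43 members higher in BL, beside 8.74% of genes, and limma voom on the rebuilt fragments called 19 of 33 with at least 10 fragments, beside 9.43% of genes. All 18 calls without the filter were among the 19 of limma voom. The limit of 10 fragments was also met by members with no fragment in the retained NTC libraries, such as VIT_16s0100g00770. Such members passed only through treated libraries, so the voom counts are a description and no support for a response of the arrays. The median log2 fold change without the filter was 1.35 over the 43 members and 0.03 over all genes. VIT_16s0100g01000 was among those with no fragment in the retained NTC libraries, and the fitted size of their change depends on the pseudocount.

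VIT_10s0042g00870, on chromosome 10, is 1 example from under the filter and does not stand for the other members there. It had 1 fragment over the 3 retained NTC libraries (0.0475 FPKM in NTC_R1), and 0.0556 FPKM in NTC_R3. It had 0.437, 0.367 and 0.553 FPKM in BL_R2, BL_R3 and BL_R4, and 0.541 in BL_R1. BF had 0.208, 0.477 and 0.277 in R2, R3 and R4, and 0.280 in R1. Both Bacillus groups were above NTC with no overlap, all 16 libraries included. Without the filter its log2 fold change was 2.26 in BL (SE 0.331, limma adjusted p = 0.000913) and 1.83 in BF (SE 0.331, limma adjusted p = 0.00391).

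BF against NTC asked the same of the fresh Bacillus preparation. Of the 8 members tested 1, VIT_16s0100g00950, was called higher and 0 lower, beside 9.89% of all genes tested called higher and 5.62% lower. That call was lost without NTC_R1, NTC_R2, NTC_R4, Aki_R3, BL_R3, BL_R4, BF_R2, BF_R3 or BF_R4. Over all 16 libraries 2 of 9 were called higher, beside 9.25% of genes higher and 6.56% lower, the second being VIT_10s0042g00920 (log2 fold change 1.65, SE 0.544, limma adjusted p = 0.0486). BF_R1, BF_R3 and BF_R2 had 0.785, 1.10 and 0.336 FPKM of that member, and BF_R4 had 0.179, under the 0.299 of NTC_R3. VIT_16s0100g01030 was at 0.194, 0.509 and 0.622 FPKM in BF_R2, BF_R3 and BF_R4, and its log2 fold change of 1.89 missed the threshold (SE 0.612, limma adjusted p = 0.0557).

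By overlap, BF was above NTC for 14 of 43 members in the retained libraries, beside 16.5% of genes, and for 5 of 44 over all 16, beside 8.00%. Those 5 were VIT_16s0100g00780, VIT_16s0100g00920, VIT_16s0100g00950, VIT_16s0100g01030 and VIT_10s0042g00870, of which VIT_16s0100g00780 and VIT_16s0100g00920 were named after their values were seen. The model without the filter called 3 of 43 higher, beside 7.47% of genes, with a median log2 fold change of 0.66 over the 43 members and 0.03 over all genes.

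Aki against NTC asked how the plant extract changed the leaf. No member of the 8 tested was called in either direction, beside 4.29% of all genes called higher and 3.63% lower, and none had an unadjusted limma p under 0.05. limma voom also called 0, of 33, beside 4.49% of genes higher, with 3 at an unadjusted p under 0.05. Over all 16 libraries 0 of 9 were called, beside 0.820% of genes higher and 0.109% lower. The largest log2 fold change was that of VIT_10s0042g00890, 1.32 (SE 0.788, limma adjusted p = 0.375), where Aki_R3 had 0.886 FPKM and Aki_R2 and Aki_R4 had 0.163 and 0.0568. The upper bounds of the 95% intervals of the 7 low members were 1.35 to 3.03 on the log2 scale, so changes of up to those sizes could not be told from none.

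Overlap set Aki above NTC for 2 of 43 members in the retained libraries, beside 11.3% of genes, and below NTC for 2, beside 11.6%. VIT_16s0100g01000 and VIT_10s0042g00870 were above, and VIT_16s0100g01140 and VIT_10s0042g00950 were below, with VIT_16s0100g01140 named after its values were seen. Without the filter the model called 1 of 43 higher, beside 3.07% of genes, namely VIT_10s0042g00870 (log2 fold change 1.29, SE 0.331, limma adjusted p = 0.0424). It was at 0.208, 0.188 and 0.144 FPKM in Aki_R2, Aki_R3 and Aki_R4, and at 0.0550 in Aki_R1, which is under NTC_R3. With all 16 libraries this member was not called (limma adjusted p = 0.212).

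**Figure D4:**
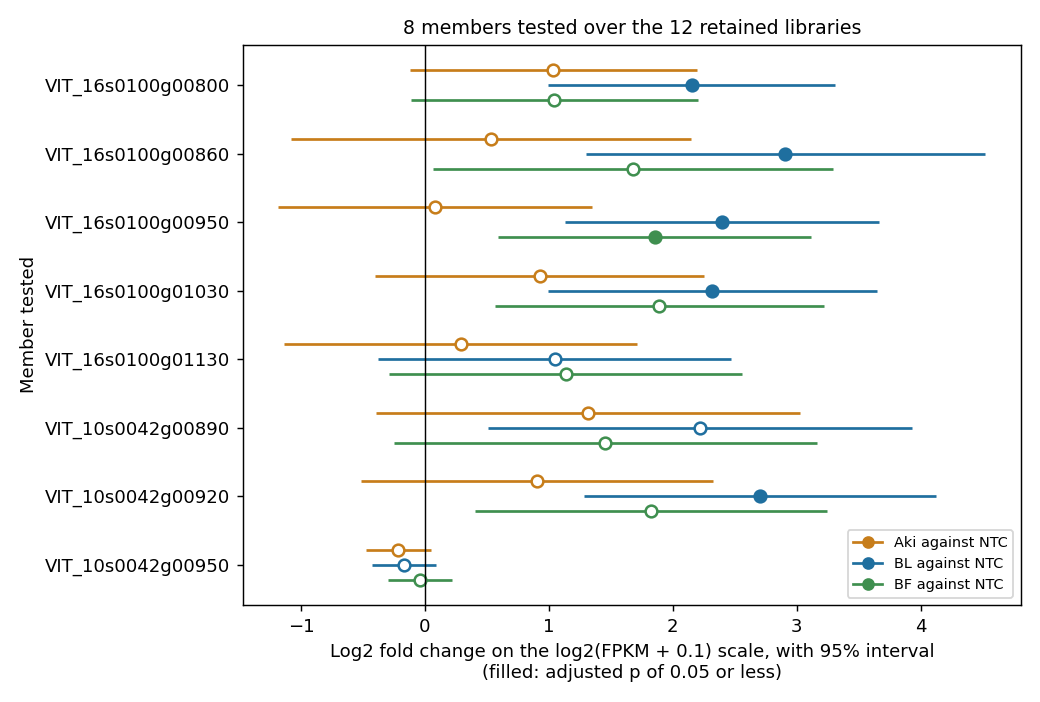
Log2 fold change against NTC of the 8 members tested over the 12 retained libraries, with 95% intervals, for Aki, BL and BF. Filled points are called, 5 in BL and 1 in BF, and the intervals of VIT_10s0042g00950 are the narrowest and include 0.

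The treatments were also compared with each other, where the NTC means do not enter. Against BL, Aki was called lower for 2 of 8 members and higher for 0, beside 8.79% of genes lower and 6.66% higher. VIT_16s0100g00860 differed by -2.38 (SE 0.743, limma adjusted p = 0.0482) and VIT_16s0100g00950 by -2.32 (SE 0.583, limma adjusted p = 0.0189) on the log2 scale. The count was 0 without Aki_R4, BL_R3 or BL_R4, and 1 without NTC_R2, NTC_R4, Aki_R2, BL_R2, BF_R2, BF_R3 or BF_R4. Over all 16 libraries it was 4 of 9, beside 7.41% of genes lower and 7.04% higher, with VIT_16s0100g01030 and VIT_10s0042g00920 added. Leaving out 1 of the 16 gave 2 to 5. Aki lay below BL with no overlap for 20 of 43 members in the retained libraries, beside 19.0% of genes, and for 18 of 44 over all 16, beside 10.8%.

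Against BF, Aki was called lower for 0 of 8 members, beside 9.74% of genes lower and 6.04% higher, with 1 at an unadjusted limma p under 0.05 and 0 by limma voom over the retained libraries. Over all 16 it was called lower for 1 of 9, beside 7.66% of genes lower and 6.90% higher, VIT_16s0100g00950 (log2 difference -1.95, SE 0.485, limma adjusted p = 0.0118).

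BL and BF hold the same strain in 2 preparations that also differ in growth medium and carrier. No member was called between them in the retained libraries, beside 0.00% of genes in either direction, and none had an unadjusted limma p under 0.05. limma voom called 0 of 33, beside 0.0181% of genes, with 6 at an unadjusted p under 0.05. Over all 16 libraries 0 of 9 were called, beside 0.0889% of genes higher in BL and 0.0445% lower, and 2 had an unadjusted p under 0.05. The log2 difference of BL from BF was 1.11 for VIT_16s0100g00800 (95% interval -0.05 to 2.27) and 1.23 for VIT_16s0100g00860 (95% interval -0.38 to 2.84). For VIT_16s0100g00950 it was 0.54 (95% interval -0.72 to 1.81). These intervals allow both no difference and a difference of several fold. In the retained libraries BL lay above BF with no overlap for 8 of 43 members, beside 4.91% of genes, and below for 0, beside 6.18%. Over all 16 the count was 2 of 44, beside 2.17%, VIT_16s0100g00800 and VIT_16s0100g00810, the latter named after its values were seen. VIT_16s0100g00800 had 0.694 to 0.716 FPKM in BL and 0.118 to 0.464 in BF.

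The same alternatives over all 16 libraries gave counts of like order. Without the filter 18 of 44 members were called higher in BL, beside 7.13% of genes, 5 in BF, beside 7.05%, and 0 in Aki, beside 0.605%. limma voom called 19 of 38 in BL, beside 8.35%, 5 in BF, beside 8.18%, and 0 in Aki, beside 0.809%, and over the retained libraries 2 of 33 in BF, beside 7.87%. The BL share stayed above that of all genes in each of these. For limma voom this share includes members that passed its limit only through treated libraries.

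Between treatments, Aki was lower than BL for 9 of 43 members without the filter, beside 6.36% of genes, and for 14 of 44 over all 16, beside 5.59%. With limma voom it was lower for 10 of 33, beside 6.86%, and for 15 of 38 over all 16, beside 7.03%. Against BF it was lower for 0 of 43 and 0 of 33, beside 7.04% and 6.83%, and over all 16 for 2 of 44 and 2 of 38, beside 5.80% and 7.23%. BL was above BF for 0 members over all 16, beside 0.0198% of genes without the filter and 0.0983% with limma voom.

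VIT_10s0042g00950 stood apart from the other members in level and in response. It was at 16.8, 15.1 and 18.5 FPKM in NTC_R1, NTC_R2 and NTC_R4, and 14.9 in NTC_R3. BL had 14.6, 14.0 and 16.2 in R2, R3 and R4, and 15.2 in R1. BF had 18.1, 14.0 and 17.1 in R2, R3 and R4, and 13.2 in R1. Aki had 14.9, 13.6 and 14.8 in R2, R3 and R4, and 18.4 in R1. BL and BF overlapped with NTC, and Aki was below NTC only while Aki_R1 was left out. The log2 fold change was -0.17 in BL (95% interval -0.43 to 0.09), -0.04 in BF (95% interval -0.30 to 0.22) and -0.21 in Aki (95% interval -0.47 to 0.05), none of them called. With 222 to 382 fragments in a library it is the member with the firmest values, and its intervals exclude a change of 1.4 on the log2 scale in either direction.

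The row ids next to the arrays were read for comparison, 10 before and 10 after each. Of the 40 neighbours 23 passed the filter. Of these, 5 were called higher in BL, beside 11.5% of all genes tested, and 4 in BF, beside 9.89%. In both groups 0 were called lower, beside 8.16% and 5.62%. In Aki 1 was called higher and 1 lower, beside 4.29% and 3.63%. With all 16 libraries 4 were called higher in BL, beside 9.33%, and 5 in BF, beside 9.25%. Aki then had 0 in either direction, beside 0.820% higher and 0.109% lower. Only the ids directly beside the arrays are described. VIT_16s0100g01210, after the chromosome 16 array, had a log2 fold change of 0.32 in BL (SE 0.112, limma adjusted p = 0.0623), not called. In BF its log2 fold change was 0.54 (SE 0.112, limma adjusted p = 0.00610), called higher. VIT_10s0042g00830, before the chromosome 10 array, was called in neither, at -0.12 in BL (SE 0.412, limma adjusted p = 0.869) and 0.08 in BF (SE 0.412, limma adjusted p = 0.930). The id directly before the chromosome 16 array, VIT_16s0100g00740, was at 0.0803, 0.495 and 0.277 FPKM in NTC_R1, NTC_R2 and NTC_R4, and 0.846 in NTC_R3. It was at 3.37, 7.86 and 5.61 FPKM in BL_R2, BL_R3 and BL_R4, and at 2.98, 4.83 and 2.72 in BF_R2, BF_R3 and BF_R4. The study carried this gene as one of its marker candidates, with no known function. Its log2 fold change was 3.98 in BL (SE 0.501, limma adjusted p = 0.000224) and 3.35 in BF (SE 0.501, limma adjusted p = 0.000846). No retained NTC library reached 0.5 FPKM for it, so it passed the filter only through treated libraries, and its calls are a description. In Aki_R2, Aki_R3 and Aki_R4 it was at 0.702, 0.873 and 0.244 FPKM, and it was not called.

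The id directly after the chromosome 10 array, VIT_10s0042g00960, rose in both Bacillus groups. It was at 8.47, 13.5 and 8.51 FPKM in NTC_R1, NTC_R2 and NTC_R4, and 17.0 in NTC_R3. BL had 38.2, 39.4 and 44.2 in R2, R3 and R4, and BF had 50.4, 55.9 and 35.9. On the log2 scale it rose by 2.02 in BL (SE 0.221, limma adjusted p = 9.97e-05) and 2.22 in BF (SE 0.221, limma adjusted p = 5.90e-05). None of the ids beside the arrays has a name in the sources used here, and whether they belong to the same family as the members was not tested.

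**Figure D5:**
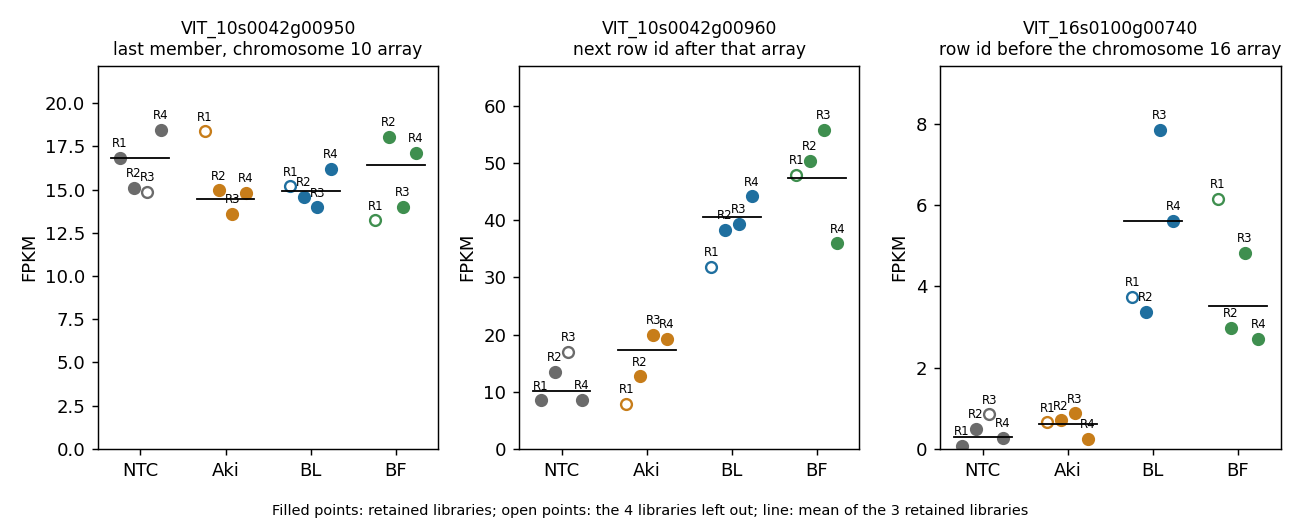
FPKM per library and group of VIT_10s0042g00950, the highest member, VIT_10s0042g00960, just after its array, and VIT_16s0100g00740, just before the other array. The first stays between 13.2 and 18.5 FPKM in all 16 libraries, while every BL and BF library of the other two lies above every NTC and Aki library.

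MYB14, a transcription factor known in grapevine as an activator of stilbene synthase promoters, was the gene of the stilbene pathway outside the arrays that the study's own tables tie to a row id, VIT_05s0049g01020. It was at 0.358, 0.189 and 0.471 FPKM in NTC_R1, NTC_R2 and NTC_R4, and 0.599 in NTC_R3. BL had 0.940, 1.58 and 1.06 in R2, R3 and R4, and BF had 1.17, 1.17 and 1.13. Aki had 0.372, 1.21 and 0.622, with Aki_R3 again the highest of its group. The log2 change of VIT_05s0049g01020 was 1.58 in BL (SE 0.412, limma adjusted p = 0.0179). It was 1.57 in BF (SE 0.412, limma adjusted p = 0.0213) and 0.85 in Aki (SE 0.412, limma adjusted p = 0.252). No retained NTC library reached 0.5 FPKM for this id. It passed the filter only through treated libraries, so its calls are a description and no support for a response of the arrays. Over the 16 libraries its log2 level had a Pearson's r of 0.867 with that of the summed members without VIT_10s0042g00950, and of 0.749 with that of all members. By the first r this id had rank 148 of the 20237 genes compared. Each r is a description over libraries that share the treatments.

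The members not named one by one gave little signal each. The 32 members with a fragment outside the 12 with the highest mean had means of 0.00267 to 0.214 FPKM over the 16 libraries, with 1 to 67 fragments in all. The highest level of any of them in a library was 0.749 FPKM, VIT_16s0100g01160 in BL_R4. VIT_16s0100g01200, the eighth by mean and the last id of its array, was found in all 16 libraries, at 0.0433, 0.0534 and 0.149 FPKM in NTC_R1, NTC_R2 and NTC_R4, 0.304 in NTC_R3, and 0.398, 0.390 and 0.112 in BL_R2, BL_R3 and BL_R4. These groups overlapped, and the member did not pass the filter.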

How the data were processed

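Stranded mRNA libraries made from total leaf RNA of 16 samples were sequenced as paired-end reads. The submitters' processing notes and the study name CASAVA 1.8.2, FastQC 0.10.1, STAR 2.6 for mapping to the PN40024 12X genome and featureCounts 1.6.1 for uniquely mapped reads, and the authors deposited FPKM per gene. Unique mapping loses fragments that near-identical copies share.

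Whole fragments were rebuilt from the steps between low FPKM values, which gave depth. Genes were tested on log2(FPKM + 0.1) with limma 3.58.1 in R 4.3.3 (trend and robust), in 1 model of 4 groups, at 0.5 FPKM or more in at least 3 libraries, with Benjamini-Hochberg adjustment over all genes. Fold changes are on that scale and understate low genes. Python 3.11.15, pandas 2.3.3, NumPy 2.4.6 and matplotlib 3.10.9 served for the rest. The 12 libraries the study kept were the main set, since its comparisons used them. That choice by the study rested on the expression values themselves.

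Named were the 12 members with the highest mean, every member called against NTC, VIT_05s0049g01020, called neighbours and the genes most like the summed members. As most neighbours and such genes have no name in the sources used here, of the called neighbours only the ids beside the arrays, and of the latter only the first, are printed. Members and lists were chosen with earlier results of these data known. limma voom on rebuilt fragments (at least 10) was added after the data were seen. Alternatives were the pseudocount, the filter, the scaling, the set of libraries, a fit per comparison, a replicate block and leaving out each library. No id matched the reference used here, so no sequence, position or pathway list beyond the members was analysed.

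Replicates were pools from separate plants of 1 experiment, and p-values measure the spread between these pools.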

Additional observations from a re-analysis of the deposited data

Results flagged for a closer look

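Of 56 checks of a group of 4 libraries over 14 items, 12 had a highest or lowest library far from the others by Dixon's criterion, where chance gives about 1 in 20 for values that vary continuously. That rate does not hold for the lowest counts: the other NTC libraries of VIT_16s0100g01000 and VIT_10s0042g00860 were all at 0, where any fragment meets the criterion. NTC_R3 was high for the chromosome 16 sum (6.68 CPM, fragments per 1000000 assigned), the chromosome 10 sum without VIT_10s0042g00950 (1.31), VIT_16s0100g00950 (0.389 FPKM), VIT_16s0100g01000 (0.259 FPKM), VIT_10s0042g00890 (0.591 FPKM) and VIT_10s0042g00860 (0.386 FPKM, from 1 fragment).

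Aki_R3 was high for the chromosome 16 sum (6.86 on the same scale), the chromosome 10 sum without VIT_10s0042g00950 (2.39) and VIT_10s0042g00890 (0.886 FPKM). BF_R3 was high for VIT_10s0042g00890 (0.964 FPKM) and BF_R1 for VIT_16s0100g01000 (0.627 FPKM). BL_R3 was low for VIT_16s0100g01030 (0.401 FPKM). The sums share their fragments with the members, so these are not 12 separate events, and their cause was not tested.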

How the results depend on the processing

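Low levels limit what can be said, since 47 of the 51 members stayed under 1 FPKM in every library. For BL against NTC, the 5 members called were called in all 6 combinations of library set with the filter, without it or with voom. The count of members called higher in BL was 18 without a filter, 18 without it over all 16, 19 with voom and 19 with voom over all 16, 0 at a filter of 1 FPKM and 1 with a replicate block. A pseudocount of 0.01 ended the BL calls of VIT_16s0100g00860 (adjusted p = 0.0557) and VIT_16s0100g00950 (0.0777). Leaving out 1 library gave 1 to 6, and 5 to 7 over all 16. At the filter of 1 FPKM none of the called members was tested, so the 0 there, here and below, says nothing about those calls.

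For BF the count of 1 became 0 in a separate fit, at a pseudocount of 1, at 1 FPKM, with median-of-ratios or quantile scaling and with the replicate block. It became 2 over all 16, without trend and robust, with the block over all 16 and with voom, 3 without a filter, and 5 over all 16 without a filter or with voom. Leaving out 1 library gave 0 to 2, and 0 to 3 over all 16. Aki against NTC gave 1 without a filter.

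Aki below BL, 2 members, became 1 in a separate fit, at a pseudocount of 0.01, with median-of-ratios or quantile scaling and without trend and robust, 0 at 1 FPKM, 4 over all 16 and with the block over all 16, 9 without a filter, 10 with voom, and over all 16 14 without a filter and 15 with voom. Leaving out 1 library gave 0 to 3, and 2 to 5 over all 16. Aki below BF, 0 members, became 1 over all 16, without trend and robust and with the block over all 16, and 2 over all 16 without a filter or with voom. Leaving out 1 library gave 0 to 0, and 1 to 2 over all 16.

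Log2 changes that turned sign were none of them called. Against NTC in Aki, VIT_16s0100g00860 was -0.19 with the block. VIT_16s0100g00950 was -0.21 over all 16, with the block over all 16 and without a filter over all 16, -0.56 at a pseudocount of 0.01, -0.11 with the block, -0.074 with voom and -0.37 with voom over all 16. VIT_16s0100g01130 was -0.19 over all 16, with the block over all 16 and without a filter over all 16, and -0.38 with voom over all 16. VIT_10s0042g00950 in BF was 0.031 with the block. Leaving out 1 library, of the retained or of all 16, gave -0.15 to 0.070 for that member in BF, and in Aki -0.43 to 1.24 for VIT_16s0100g00860, -0.49 to 0.71 for VIT_16s0100g00950 and -0.50 to 0.57 for VIT_16s0100g01130.

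The summed FPKM moved from the retained to all 16 libraries in NTC from 1.24 to 2.07 for chromosome 16, from 0.133 to 0.469 for chromosome 10 without VIT_10s0042g00950 and from 1.37 to 2.54 for both, and for chromosome 10 from 15.7 to 16.5 in Aki and from 18.3 to 17.4 in BF. Replicate numbers did not pair the libraries, since same-numbered retained libraries had correlations of their deviations from -0.0567 to 0.149. Causes were not tested.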

Other observations

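Over the 16 libraries, the gene whose log2 level was most like that of the summed members, of 20237 genes compared, was VIT_17s0000g09230 (Pearson's r = 0.938, n = 16 libraries). With VIT_10s0042g00950 left out of the sum, a choice made after its level was seen, it was VIT_07s0141g00020 (r = 0.964). VIT_05s0049g01020 had rank 148 by that measure. These are descriptions over libraries that share the treatments, and neither leading gene has a name in the sources used here.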
